A study of Mus musculus with 3 samples.

Results

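The 10 keratin genes Krt7, Krt8, Krt18, Krt19, Krt20, Krt23, Krt17, Krt14, Krt5 and Krt15 were followed across 4 cell classes of mouse pancreatic tumours. They were chosen by symbol from the 28692 genes of the matrix, which holds 51 keratin genes in all. The cells came from 3 tumours of KPf/fC mice, a strain that carries, among its alleles, a floxed Trp53 gene and Cre recombinase expressed in the pancreas. All 3 tumours share this genotype, none was treated, and no normal pancreas was compared. The labels give no animal age and do not say whether each tumour came from its own mouse. P-values thus weigh class differences against the spread between these tumours. That spread was estimated over all 4 classes together, not for each class. Cells lacking CD45 (a haematopoietic surface protein), CD31 (endothelial) and PDGFRa (carried by many fibroblasts) were sorted and sequenced with 10x 3' v2 chemistry, which tags transcripts with unique molecular identifiers (UMIs).

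Keratins are the intermediate filament proteins of epithelial cells. Each filament is built of pairs of an acidic type I and a basic type II chain, and a chain without a partner is degraded. Krt7, Krt8 and Krt5 encode type II chains and the other members type I chains. KRT8 and KRT18 are the pair of simple epithelia, KRT7 and KRT19 mark ducts, KRT20 is known from gut epithelium, and KRT5, KRT14, KRT15 and KRT17 are known from basal layers of stratified epithelia. Mesothelium, the flat lining of the body cavities, also carries simple keratins.

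Classes were set by UMIs of other genes, so keratins took no part in choosing the cells. Epithelial cells held Epcam and Cdh1, mesothelial cells Upk3b and Lrrn4 without Epcam, fibroblasts Dcn and Col3a1 without Epcam, and mesenchymal tumour-like cells Cdkn2a and Hmga2 with no Epcam and at most 1 Dcn UMI. In tumours 1, 2 and 3, respectively, these gates gave 2406, 1649 and 3251 epithelial cells, 166, 57 and 46 mesothelial cells, 1525, 1316 and 1889 fibroblasts, and 190, 1057 and 130 mesenchymal tumour-like cells, 13682 of 18990 kept cells in all. Kept cells numbered 5728, 5978 and 7284 of 5874, 6087 and 7615 barcodes, and the tumours' libraries held 60801677, 67262634 and 53162622 UMIs. Pairs of tumours shared 50 to 65 barcode sequences. Median depth was 7925 to 11428.5 UMIs in epithelial, 8102.5 to 9853 in mesothelial, 4800 to 7818.5 in fibroblast and 9675 to 14332.5 in mesenchymal tumour-like cells.

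Of the markers not used for gating, Cldn7 was highest in epithelial and Wt1 in mesothelial cells, and both were also found in the fibroblast class. Cdh17, another epithelial marker, was not highest in epithelial cells. It stood at 221% and 239% of the epithelial level in mesenchymal tumour-like cells of tumours 1 and 3. Cldn7, a tight junction gene, stood at 373 to 426 CPM (UMIs of a gene scaled to 1e+06 UMIs of the class) in epithelial cells and at most 16.7 CPM in any other class. Wt1, a transcription factor of mesothelium, reached 245 to 320 CPM in mesothelial cells and 33.3 to 106 CPM in fibroblasts. In tumour 2 the fibroblasts also held 1574 CPM of Cdkn2a and 305 CPM of Hmga2. Summed levels of 9 fibroblast markers, Dcn and Col3a1 among them, were 24663, 10285 and 22984 CPM in fibroblasts. In mesothelial cells they were 12872, 10777 and 15573 CPM. The median of 8 epithelial markers outside the gates was 3.38%, 3.93% and 4.10% of the epithelial level in mesothelial cells. The highest of them was at 63.3%, 76.2% and 21.5%. Summed levels of 5 acinar enzyme genes in epithelial cells were 2068, 70.7 and 2496 CPM in tumours 1, 2 and 3. What acinar RNA contributes to the keratin levels was not tested.

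Promoters are shown for pairs of chromosomal neighbours: Krt8 and Krt18, the filament partners of simple epithelia, and Krt20 and Krt23, both of which spread widely between tumours in the mesenchymal tumour-like class. Each run is the 250 bases before the start of the gene in RefSeq's GRCm38.p6 table, 5′ to 3′ on the gene's strand. Capitals mark matches, on either strand, to the TATA box (TATAAA), the GC box (GGGCGG) or the AP-1 motif (TGANTCA).
Krt8, chr15:102004343-102004592, minus strand: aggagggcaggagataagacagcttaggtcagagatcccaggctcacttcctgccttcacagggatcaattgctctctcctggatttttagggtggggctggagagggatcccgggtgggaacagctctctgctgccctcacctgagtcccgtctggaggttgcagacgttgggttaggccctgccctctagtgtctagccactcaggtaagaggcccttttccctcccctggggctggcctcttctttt
Krt18, chr15:102027966-102028215, plus strand: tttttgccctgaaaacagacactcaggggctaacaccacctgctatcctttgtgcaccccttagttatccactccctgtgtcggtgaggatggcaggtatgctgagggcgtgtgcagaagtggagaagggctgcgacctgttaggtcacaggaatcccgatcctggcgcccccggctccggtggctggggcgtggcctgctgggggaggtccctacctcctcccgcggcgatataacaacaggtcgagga
Krt20, chr11:99438154-99438403, minus strand: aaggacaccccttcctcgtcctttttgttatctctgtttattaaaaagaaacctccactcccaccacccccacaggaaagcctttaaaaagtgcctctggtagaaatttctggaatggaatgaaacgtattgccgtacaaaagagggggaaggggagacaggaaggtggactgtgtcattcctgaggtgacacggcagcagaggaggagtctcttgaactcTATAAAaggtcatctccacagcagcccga
Krt23, chr11:99493121-99493370, minus strand: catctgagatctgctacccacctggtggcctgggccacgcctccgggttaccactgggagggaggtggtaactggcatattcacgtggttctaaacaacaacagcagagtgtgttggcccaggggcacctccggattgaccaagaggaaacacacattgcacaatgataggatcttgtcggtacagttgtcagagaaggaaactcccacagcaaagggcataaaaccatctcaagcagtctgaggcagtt
Of these 4 windows only that of Krt20 held one of the 3 motifs, a TATAAA whose first base lies at -29 from the start. Among 32851 promoters of the same length, 12.4% held TATAAA, 32.7% GGGCGG and 6.75% TGANTCA. RefSeq promoters were also found for Krt7, Krt14 and Krt5. The Krt7 window held 4 GC boxes and no other motif, and those of Krt14 and Krt5 held none. In the gene order Krt8 and Krt18, a type II and a type I gene, are direct neighbours on chromosome 15, and Krt20 and Krt23 are direct neighbours on chromosome 11, where Krt15 also lies next to Krt19.

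Epithelial cells carried the simple keratins as a large part of their transcripts. Together the 10 members made up 0.985%, 0.859% and 0.712% of epithelial UMIs in tumours 1, 2 and 3. Krt18 stood at 3920.2, 3390.4 and 3279.7 CPM (mean 3530 ± 342 SD, n = 3). Krt8, its partner, stood at 2517, 2047 and 1644 CPM (mean 2069 ± 437 SD, n = 3). The tumours were close for Krt18, with a ratio of the highest to the lowest of 1.20, against a median of 1.62 over 13695 genes of the class. The 3' UMI counts are not divided by gene length, so the order of genes is one of counted transcripts.

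The ductal keratins followed. Krt19 reached 1836, 1558 and 1365 CPM, and Krt7 reached 1217, 1370.4 and 638 CPM. The order Krt18, Krt8, Krt19, Krt7 held in each of the 3 tumours. Krt18 alone gave 39.8%, 39.5% and 46.1% of the members' UMIs. UMIs of the type I members outnumbered those of the type II members 1.64-, 1.51- and 2.12-fold, and protein chains were not measured.

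Krt20 and Krt23, a type I keratin known from gut and pancreatic epithelium, were present at a lower level and in fewer cells. Krt20 stood at 235, 135 and 94.4 CPM, and Krt23 at 100.4, 65.7 and 90.7 CPM. After each cell was thinned to 3000 UMIs, a Krt20 UMI was found in 33.2%, 24.0% and 17.2% of epithelial cells (58.1%, 40.9% and 33.5% before thinning), and a Krt23 UMI in 19.3%, 15.2% and 16.4%. For comparison, thinned mural cells of blood vessels, gated by Rgs5 and Notch3, held a Krt20 UMI in 2.36%, 0% and 2.08% of cells, at median depths of 5088, 5354 and 3157 UMIs. A Krt18 UMI was left in 97.99% or more of thinned epithelial cells, and in 12.5% to 23.9% of mural cells, which should lack it.

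The basal keratins were close to absent from epithelial cells as a class. Krt17 stood at 10.4, 12.99 and 4.56 CPM, and Krt14 at 8.27, 8.34 and 0.801 CPM. Krt15 stood at 0.743, 0.624 and 0.871 CPM. Krt5, the usual type II partner of Krt14, gave 3 UMIs in tumour 1 and 0 in tumours 2 and 3, which allows up to 0.182% and 0.0923% of those epithelial cells to hold a UMI. Trp63, the transcription factor of basal cells, gave 1 UMI in the epithelial cells of all tumours. Intervals and limits of this kind cover counting error only.

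The few Krt17 transcripts were gathered in few cells. In tumour 1, 100 of 2406 epithelial cells held all 321 Krt17 UMIs, with up to 24 in a cell. In tumour 2, 54 cells held 229 UMIs with up to 41 in a cell, and in tumour 3, 55 cells held 131 UMIs. The 1% of epithelial cells with most Krt17 held 64.5%, 77.7% and 83.2% of its UMIs. Krt14 was spread in a like way in tumours 1 and 2, where that 1% of cells held 73.4% and 49.7% of 256 and 147 UMIs. Over thinned cells, Pearson's r of Krt14 with Krt17 was -0.0039 to 0.044. Only 2, 2 and 0 of these cells held both genes, too few for r to show whether they vary together.

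**Figure D1:**
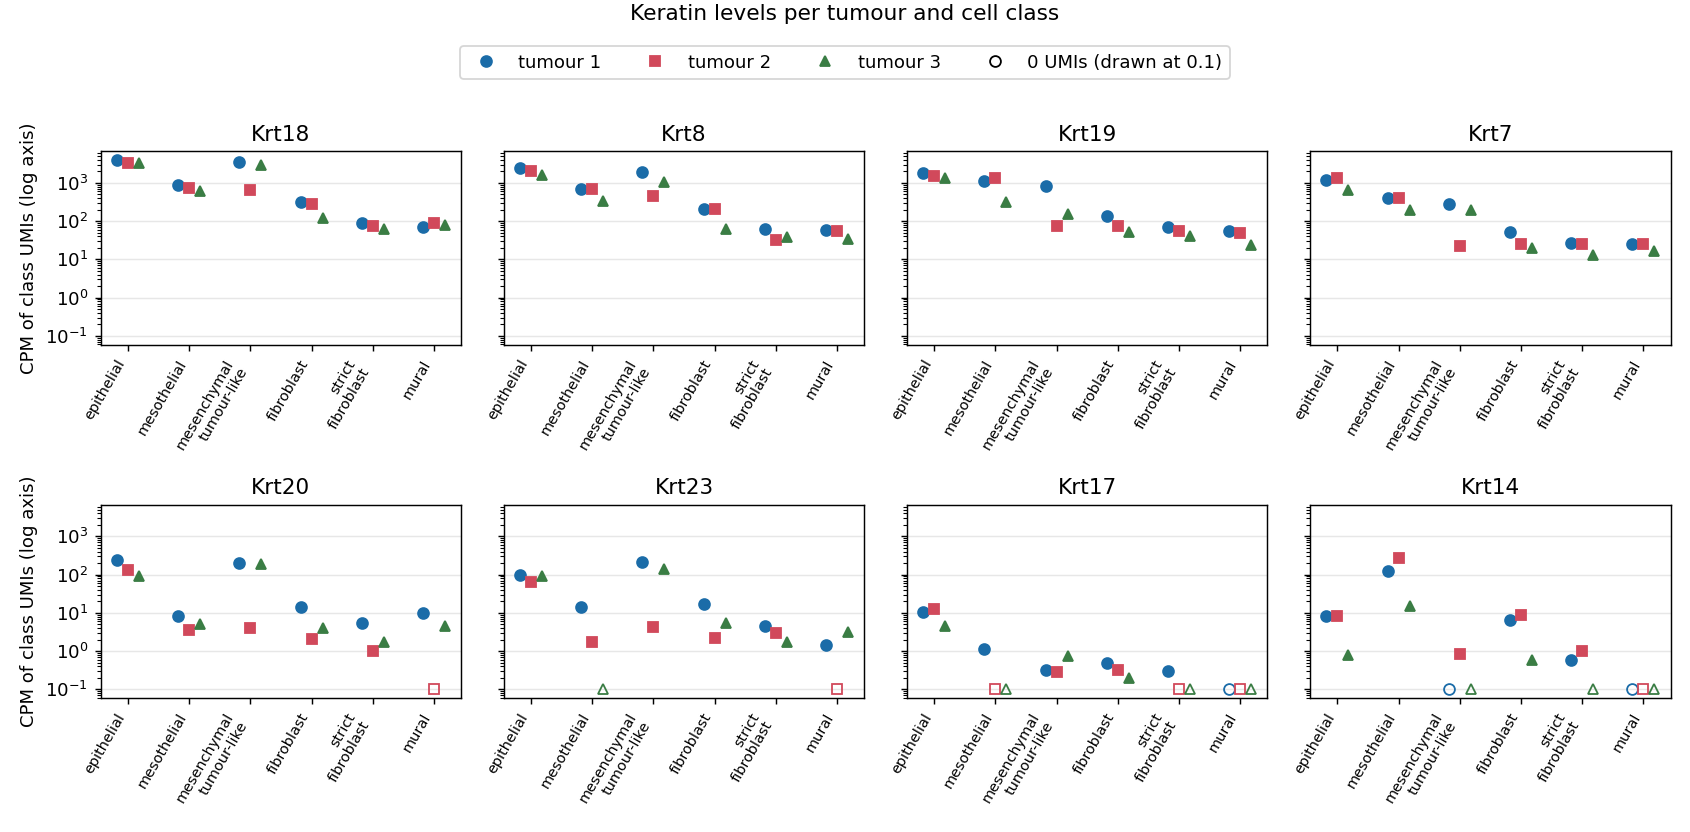
Level of 8 keratins (CPM of the class's UMIs, log axis) in each tumour and class, with open symbols for 0 UMIs drawn at 0.1. Strict fibroblasts lack mesothelial and tumour markers, and mural cells serve as background; Krt18 reached 3279.7 to 3920.2 CPM in epithelial cells and 69.2 to 89.7 CPM in mural cells, while Krt14 peaked in mesothelial cells.

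Within epithelial cells the 4 abundant keratins varied together from cell to cell. Over cells thinned to 3000 UMIs, Pearson's r between Krt8 and Krt18 was 0.42 to 0.60 across the 3 tumours, with 2406, 1649 and 3159 cells. It was 0.40 to 0.51 for Krt7 with Krt8, 0.40 to 0.46 for Krt8 with Krt19 and 0.25 to 0.27 for Krt18 with Krt19. Krt20 had lower values, at 0.10 to 0.21 with Krt7 and 0.10 to 0.28 with Krt19. Krt23 reached at most 0.16 with any member. Low counts pull r towards 0, and Krt20 and Krt23 were found in far fewer cells, so these values cannot show a weaker tie. Without thinning, r was 0.18 to 0.35 for Krt7 with Krt20 and 0.18 to 0.24 for Krt18 with Krt23. That of Krt8 with Krt18 was then 0.52 to 0.72. The cells of a tumour share a library, and these values are descriptions without a test.

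**Figure D2:**
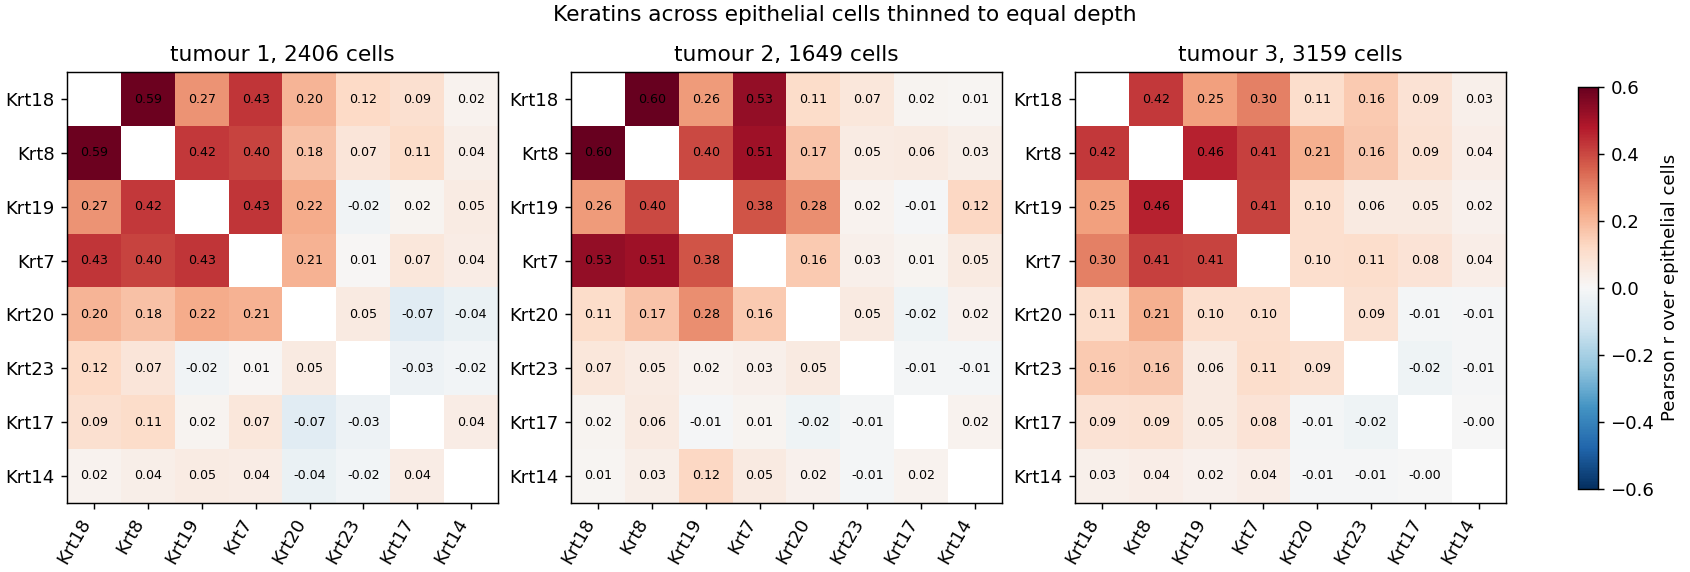
Pearson's r between 8 keratins over the thinned epithelial cells of each tumour (red positive, blue negative). Krt8 and Krt18 have the highest value in tumours 1 and 2, 0.59 and 0.60, while Krt23 lies between -0.031 and 0.16 with the other genes shown.

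The genes most like each keratin were named by the smallest r of the 3 tumours, among 7856 genes. Krt7 went with S100a11, S100a6, Tmsb4x and Actg1, and Krt8 with Tmsb4x, Actg1, S100a11 and Anxa2. Actin, thymosin and S100 genes thus recurred in both lists. Krt18 went with Actg1, Tnfrsf12a, S100a11 and the tight junction gene Cldn4. Krt19 had other neighbours, Lgals4, Gsta4, Epcam and Gsto1, with r from 0.27 to 0.35. Krt20 went with S100a6, Phgr1, Plac8 and 2200002D01Rik, at 0.16 to 0.38. Krt23 went with Anxa2, Lmo7, Sprr1a and Sdcbp2, at 0.059 to 0.15.

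Against fibroblasts, epithelial cells were higher for 8 of the 9 members that could be tested, and Krt5 was too low to test. Over all genes, 5552 of 13882 (40.0%) passed an adjusted p of 0.05 in edgeR's quasi-likelihood test with the tumour as block, 20.6% higher and 19.4% lower in epithelial cells. The median log2 fold change was 4.11 over the 9 members and 0.11 over all genes. Without tumour 1, 4 members were called, without tumour 2, 7, and without tumour 3, 6.

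Krt8 stood at 208, 203 and 61.6 CPM in fibroblasts, below every epithelial value (log2 fold change 3.89, SE 0.52, adjusted p 0.000623 in edgeR). Krt18 stood at 309.6, 281 and 119 CPM there (log2 fold change 3.996, SE 0.58, adjusted p 0.00100 in edgeR). Krt7 gave 53.7, 25.4 and 19.9 CPM in fibroblasts, a log2 fold change of 5.21 with an SE of 0.84 (edgeR adjusted p 0.00161). Krt19, Krt20, Krt23, Krt17 and Krt15 were also called, at log2 fold changes of 4.43, 5.10, 4.11, 4.79 and 2.68. Krt15 rests on 4 fibroblast UMIs.

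Fibroblasts with no UMI of mesothelial or tumour markers held less Krt8 than the whole class in each tumour. A gate without mesothelial markers alone kept 809, 920 and 1231 of 1525, 1316 and 1889 fibroblasts in tumours 1, 2 and 3. The stricter gate, also without tumour markers, kept 513, 150 and 536, so most fibroblasts held a UMI of such a marker. What the removed cells are was not tested. In fibroblasts without Upk3b, Lrrn4, Msln, Wt1, Cdkn2a and Hmga2 (513, 150 and 536 cells, a gate added after the levels were seen), the members summed to 263, 191 and 157 CPM. Mural cells held 222, 217 and 161 CPM. Endothelial cells, gated by Pecam1 and Cdh5, held 233, 196 and 464 CPM, on 155, 13 and 49 cells. In the same strict fibroblasts Krt8 was 64.0, 32.6 and 37.9 CPM, against 60.5, 53.8 and 34.1 CPM in mural cells.

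Krt14 was the exception in fibroblasts. It stood at 6.53, 9.03 and 0.598 CPM there, over the same range as in epithelial cells, and the difference did not pass edgeR's test (log2 fold change 0.27, SE 0.29, adjusted p 0.506). In tumour 2, 1 fibroblast held 50 of the 115 Krt14 UMIs. Without the cells that carry mesothelial markers, the difference rose to 3.20 on the log2 scale and was called, and it turned to -0.82, called in the other direction, when cells of more than 1 gate were kept in each class. Krt14 in strict fibroblasts was 0.598, 1.02 and 0 CPM.

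**Figure D3:**
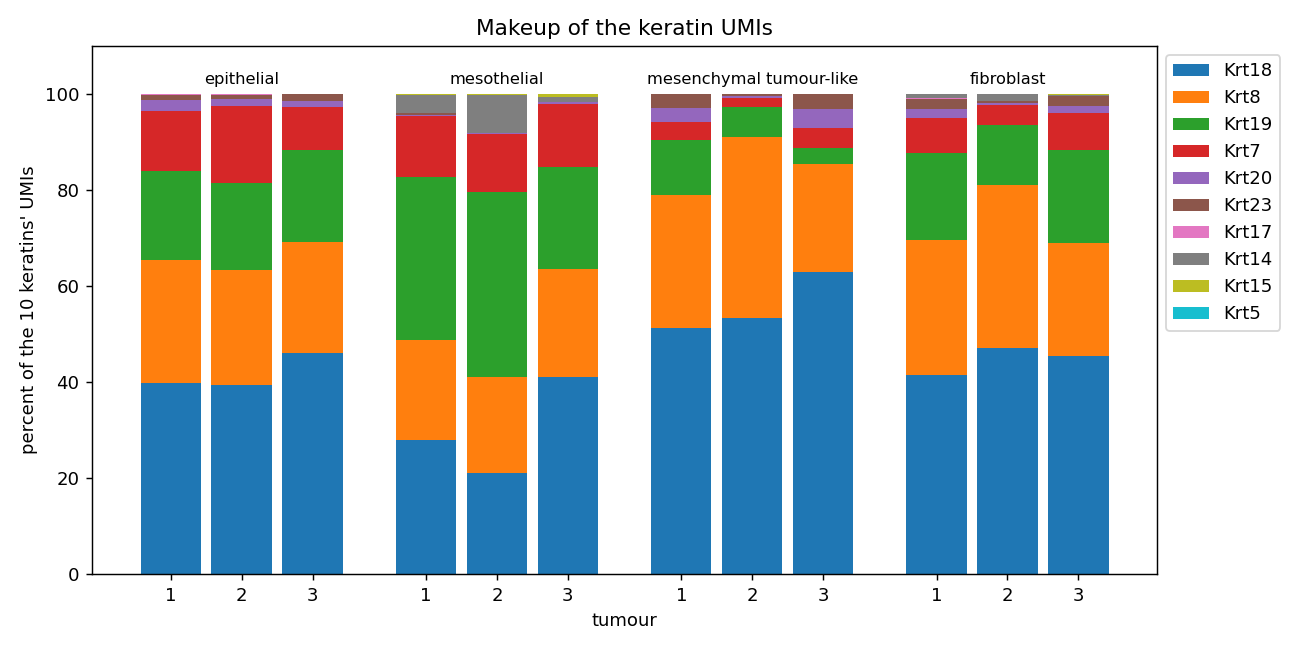
Share of each keratin in the UMIs of the 10 members, per class and tumour, in percent. Krt19 leads in mesothelial cells of tumours 1 and 2 at 33.8% and 38.5%, and Krt18 gives 51.3% to 62.9% in mesenchymal tumour-like cells.

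Mesothelial cells carried the same simple keratins at lower levels and added Krt14 and Krt15. The 10 members made up 0.324%, 0.344% and 0.148% of mesothelial UMIs. Krt19 stood at 1097, 1325 and 315 CPM, Krt18 at 907, 725 and 606 CPM, Krt8 at 678, 688 and 330.2 CPM and Krt7 at 411, 416 and 193 CPM. Krt19 led in tumours 1 and 2, with 33.8% and 38.5% of the members' UMIs, and Krt18 led in tumour 3, with 41.1%. The mesothelial cells of tumour 3 number 46, and their Krt19 rests on 122 UMIs.

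Of the 9 members tested between epithelial and mesothelial cells, 7 were called, 5 higher and 2 lower in epithelial cells. Over all genes 30.1% were called, 15.7% higher and 14.3% lower. Krt18 (log2 fold change 2.25, SE 0.54, edgeR adjusted p 0.0162) and Krt8 (1.90, SE 0.48, edgeR adjusted p 0.0197) were higher in epithelial cells. Krt19 and Krt7 did not pass the test, at 0.94 and 1.66 with SEs of 0.65 and 0.73, although each was higher in epithelial cells of 3 of 3 tumours. Without tumour 1, 1 member was called, without tumour 2, 8, and without tumour 3, 2.

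Krt20, Krt23 and Krt17 were also higher in epithelial than in mesothelial cells. Krt20 stood at 8.53, 3.47 and 5.16 CPM in mesothelial cells, near the 10.1, 0 and 4.65 CPM of mural cells. Krt23 stood at 14.2, 1.73 and 0 CPM, against 1.44, 0 and 3.10 CPM in mural cells, so that tumour 1 lay above the mural values. The Krt20 log2 fold change in epithelial over mesothelial cells was 5.17 with an SE of 1.35, and that of Krt23 was 4.25 with an SE of 1.22. Krt17 gave 2 mesothelial UMIs in all, a ratio of epithelial to mesothelial level of 11.996 (95% interval 3.31 to 99.3, exact, counting error only).

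Krt14 had its highest level outside the epithelial class. It stood at 122, 271 and 15.5 CPM in mesothelial cells, against 8.27, 8.34 and 0.801 CPM in epithelial cells of the same tumours. Every mesothelial value exceeded the epithelial value of its tumour, and tumour 3 was low in both classes. Its log2 fold change in epithelial against mesothelial cells was -4.42 (SE 0.32, edgeR adjusted p 5.29e-06), and that in mesothelial against fibroblast cells was 4.68 (SE 0.33, edgeR adjusted p 4.94e-05). Both calls held without each tumour in turn.

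Krt14 was carried by a part of the mesothelial cells. A UMI was found in 45 of 166, 18 of 57 and 4 of 46 cells, or 27.1%, 31.6% and 8.70%, against 0 of 127, 88 and 174 mural cells. Carriers held 4.76, 8.67 and 1.5 UMIs each on average. Krt15, another basal keratin, was also called (log2 fold change -3.21, SE 0.67, edgeR adjusted p 0.00681 for epithelial against mesothelial cells), but on 7, 5 and 4 mesothelial UMIs, and the 4 of tumour 3 came from 1 cell. Krt5 gave 0 UMIs in 166, 57 and 46 mesothelial cells, which allows up to 1.81%, 5.26% and 6.52% of cells to hold a UMI.

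Against fibroblasts, mesothelial cells were higher for 5 of 9 members, Krt15, Krt14, Krt19, Krt7 and Krt8, where 8.92% of all genes were called, 4.96% higher and 3.95% lower. Krt19 rose by 3.50 (SE 0.70, edgeR adjusted p 0.0187) and Krt7 by 3.55 (SE 0.78, edgeR adjusted p 0.0282) on the log2 scale. Krt18, at 1.75 with an SE of 0.54, did not pass (edgeR adjusted p 0.0911). Without tumour 1, 2 members were called, without tumour 2, 6, and without tumour 3, 1. Nearly all mesothelial cells also passed the fibroblast gate (162 of 166, 57 of 57 and 44 of 46), so the difference sets mesothelial cells against the rest of that gate.

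Genes that anchor keratin filaments were also compared. Of 16 tested genes of plakins, desmosomes and hemidesmosomes, 5 were higher and 0 lower in mesothelial cells than in fibroblasts, against 4.96% and 3.95% of all genes, with a median log2 fold change of 1.07 against -0.08 over all genes. Evpl, encoding envoplakin, stood at 13.1, 20.8 and 15.5 CPM in mesothelial cells and at 1.49, 0.628 and 1.79 CPM in fibroblasts (log2 fold change 3.79, SE 0.44, edgeR adjusted p 0.000535). Ppl, encoding its partner periplakin, stood at 26.7, 31.2 and 49.0 CPM against 3.63, 1.34 and 4.68 CPM (log2 fold change 3.62, SE 0.56). The other 3 were Itgb4, Pkp2 and Pkp3, of which Pkp3 gave 0 CPM in the mesothelial cells of tumour 3.

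Mesenchymal tumour-like cells had keratin levels that varied widely between tumours. Krt18 stood at 3629, 638 and 2947 CPM in tumours 1, 2 and 3, and Krt8 at 1947, 451 and 1059.7 CPM. Those of tumours 1 and 3 were near the epithelial level of the same tumour, at 92.6% and 89.9% for Krt18 and 77.4% and 64.4% for Krt8, whereas tumour 2 was at 18.8% and 22.0%. With 1 library per tumour, the difference between tumours was not tested.

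Krt20 and Krt23 showed the widest spread. Krt20 stood at 197, 4.10 and 185 CPM and Krt23 at 210.1, 4.38 and 142 CPM, ratios of the highest to the lowest tumour of 48.1 and 48.0, where 95% of 11782 genes of the class lay below 12.5. In tumour 1 the Krt23 level was 209% and in tumour 3 157% of the epithelial level. The Krt20 level was 83.8% and 196% of it. Mural cells of tumour 2 gave 0 UMIs of either gene, which allows up to 5.98 CPM, above both levels in the mesenchymal tumour-like cells of that tumour. There, 54 of 1057 cells held the 59 Krt20 UMIs, at most 3 in a cell, and 36 cells held the 63 Krt23 UMIs, up to 13 in a cell.

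Krt19 and Krt7, the ductal keratins, stood below the epithelial level of the same tumour in all 3 tumours. Krt19 stood at 810.5, 76.3 and 152 CPM, or 44.1%, 4.89% and 11.1% of the epithelial level, and Krt7 at 277, 22.0 and 202 CPM, or 22.7%, 1.60% and 31.6% of it. Krt19 per Krt18 was 0.468, 0.460 and 0.416 in epithelial cells and 0.223, 0.119 and 0.0514 in mesenchymal tumour-like cells of the same tumours. In mural cells this ratio was 0.792, 0.533 and 0.294. In tumour 2, Krt18 exceeded its mural level of 89.7 CPM several-fold. Krt19, at 76.3 CPM, exceeded its mural level of 47.8 CPM, which rests on 24 UMIs, by a smaller factor.

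Single cells followed these levels. Thinned to 3000 UMIs, a mesenchymal tumour-like cell held a median of 14, 2 and 11 UMIs of Krt8 and Krt18 together, against 16, 13 and 12 in an epithelial cell and 0 in a fibroblast. No UMI of either gene was left in 2.11%, 26.0% and 0% of the mesenchymal tumour-like cells. Low-keratin cells were thus common in tumour 2 and rare in tumours 1 and 3.

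**Figure D4:**
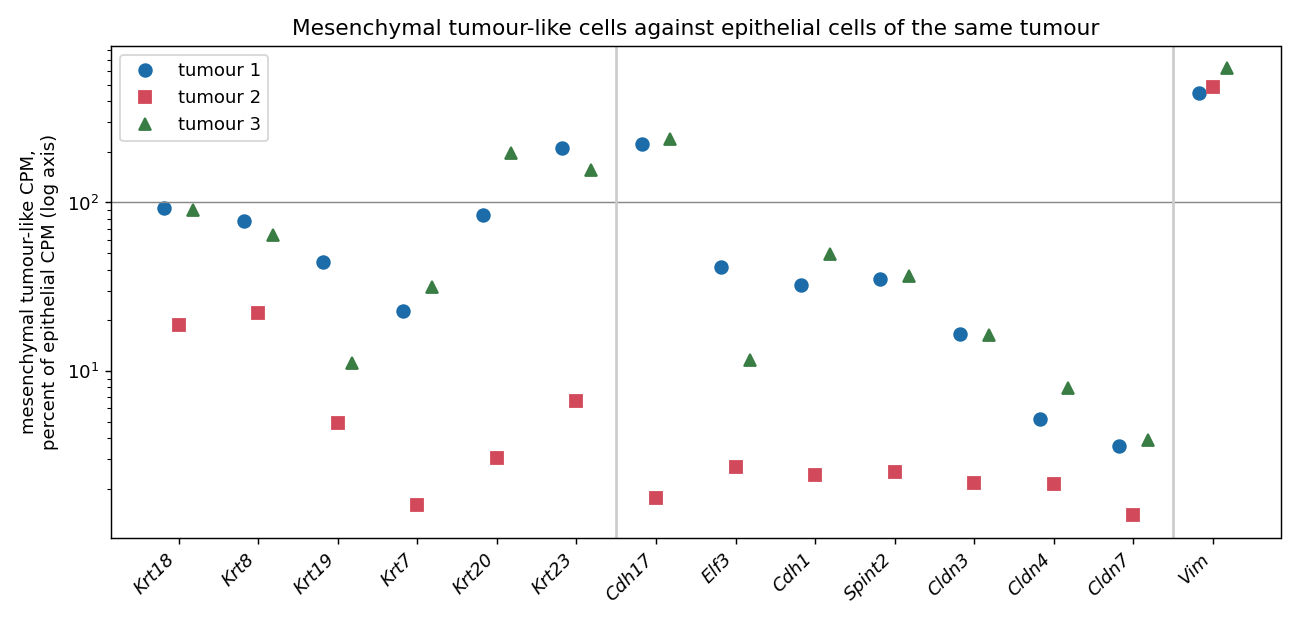
Level in mesenchymal tumour-like cells as a percentage of the level in epithelial cells of the same tumour (log axis, line at 100), for 6 keratins, 7 epithelial markers and Vim. Krt18 is at 92.6% and 89.9% in tumours 1 and 3 while Cldn7 is at 3.59% and 3.91%, and Vim is above 100% in each tumour.

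The claudin genes Cldn7 and Cldn4 stood at a lower percentage of the epithelial level than Krt8 and Krt18 in each tumour. In mesenchymal tumour-like cells Cldn7 stood at 13.6, 5.21 and 16.7 CPM, or 3.59%, 1.40% and 3.91% of the epithelial level, and Cldn4 at 5.20%, 2.13% and 7.95%. Cdh1, encoding E-cadherin, was at 32.6%, 2.41% and 49.8%, and Cdh17, encoding a cadherin of gut epithelium, at 221%, 1.76% and 239%. Vim, the mesenchymal intermediate filament gene, rose to 448%, 483% and 626% of the epithelial level. The summed level of the 10 epithelial markers was 632, 44.1 and 742 CPM, with Epcam at 0 by the gate. What cells with undetected Epcam contribute was not tested. Among cells that also lacked a UMI of Cdh1, Cldn4, Cldn7 and Elf3 (42, 855 and 22 cells), Krt18 stood at 2853, 613 and 2089 CPM, Krt8 at 1148, 427 and 433 CPM and Krt20 at 149, 3.61 and 55.6 CPM, each below the value of the whole class.

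In the test against epithelial cells, 4 of 9 members were called, all higher in epithelial cells, where 9.62% of all genes were called, 7.37% higher and 2.25% lower. These were Krt17 (log2 fold change 4.92, SE 0.57, edgeR adjusted p 0.000347), Krt14 (3.96, SE 0.46, edgeR adjusted p 0.000347), Krt19 (2.70, SE 0.69, edgeR adjusted p 0.0473) and Krt15. Krt15 gave 0 mesenchymal UMIs in all tumours, where 3 UMIs would be 0.992, 0.208 and 2.18 CPM. Its epithelial levels of 0.743, 0.624 and 0.871 CPM exceeded that limit in tumour 2 alone. The call of Krt14 rests on 0, 12 and 0 mesenchymal UMIs and that of Krt17 on 1, 4 and 1. In tumour 3 the epithelial Krt14 level of 0.801 CPM lay below the 2.18 CPM that 0 UMIs allow, so that tumour cannot show a direction. Krt8, Krt18, Krt20 and Krt23 did not pass, at log2 fold changes of 0.93, 0.69, 1.01 and 0.49 with SEs of 0.47, 0.53, 0.98 and 0.88, which leaves several-fold differences in either direction possible for the last pair. Krt7, at 2.85 with an SE of 0.78, missed the threshold (edgeR adjusted p 0.0593). Without tumour 1, 2 members were called, without tumour 2, 3, and without tumour 3, 2. Without tumour 2 the log2 fold changes of Krt20 and Krt23 turned to -0.36 and -0.79.

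Against fibroblasts, mesenchymal tumour-like cells were higher for Krt20, Krt23, Krt18 and Krt8 and lower for Krt14, 5 of 9 members, where 24.4% of all genes were called, 9.93% higher and 14.5% lower. Krt18 rose by 3.31 (SE 0.58, edgeR adjusted p 0.00555) and Krt8 by 2.96 (SE 0.51, edgeR adjusted p 0.00491) on the log2 scale. Krt20 rose by 4.09 (SE 1.02, edgeR adjusted p 0.0229) and Krt23 by 3.62 (SE 0.92, edgeR adjusted p 0.0241). In mesenchymal tumour-like cells of tumour 2 these last genes stood at only 4.10 and 4.38 CPM. Fibroblasts held 2.12 to 14.1 CPM of Krt20 and 2.20 to 16.7 CPM of Krt23 over the tumours. Krt14 fell by 3.70 (SE 0.46, edgeR adjusted p 0.000289), on 0, 12 and 0 UMIs. Its highest level over the tumours was 9.03 CPM in the whole fibroblast class. In strict fibroblasts, without mesothelial or tumour markers, the highest was 1.02 CPM, against 0.834 CPM in mesenchymal tumour-like cells. Without tumour 1 or without tumour 3, 1 member was called, Krt14, and without tumour 2, 7. Cells that passed both the fibroblast and the mesenchymal gate (54, 256 and 8) were left out of both classes.

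Between mesothelial and mesenchymal tumour-like cells, 2 of 9 members were called, Krt14 and Krt15, both higher in mesothelial cells, where 22.9% of all genes were called, 12.8% higher and 10.1% lower. Krt14 differed by 8.38 on the log2 scale (SE 0.47, edgeR adjusted p 9.15e-07). Mesothelial Krt15, at 3.98, 8.67 and 10.3 CPM on few UMIs, exceeded the limit of 0.992, 0.208 and 2.18 CPM that 0 mesenchymal UMIs allow in each tumour. Krt20 and Krt23, at -4.17 and -3.76 with SEs of 1.36 and 1.20, were lower in mesothelial cells of 3 of 3 tumours but did not pass (edgeR adjusted p 0.0611 and 0.0565). Without tumour 2, 6 members were called, and 2 without tumour 1 or 3.

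**Figure D5:**
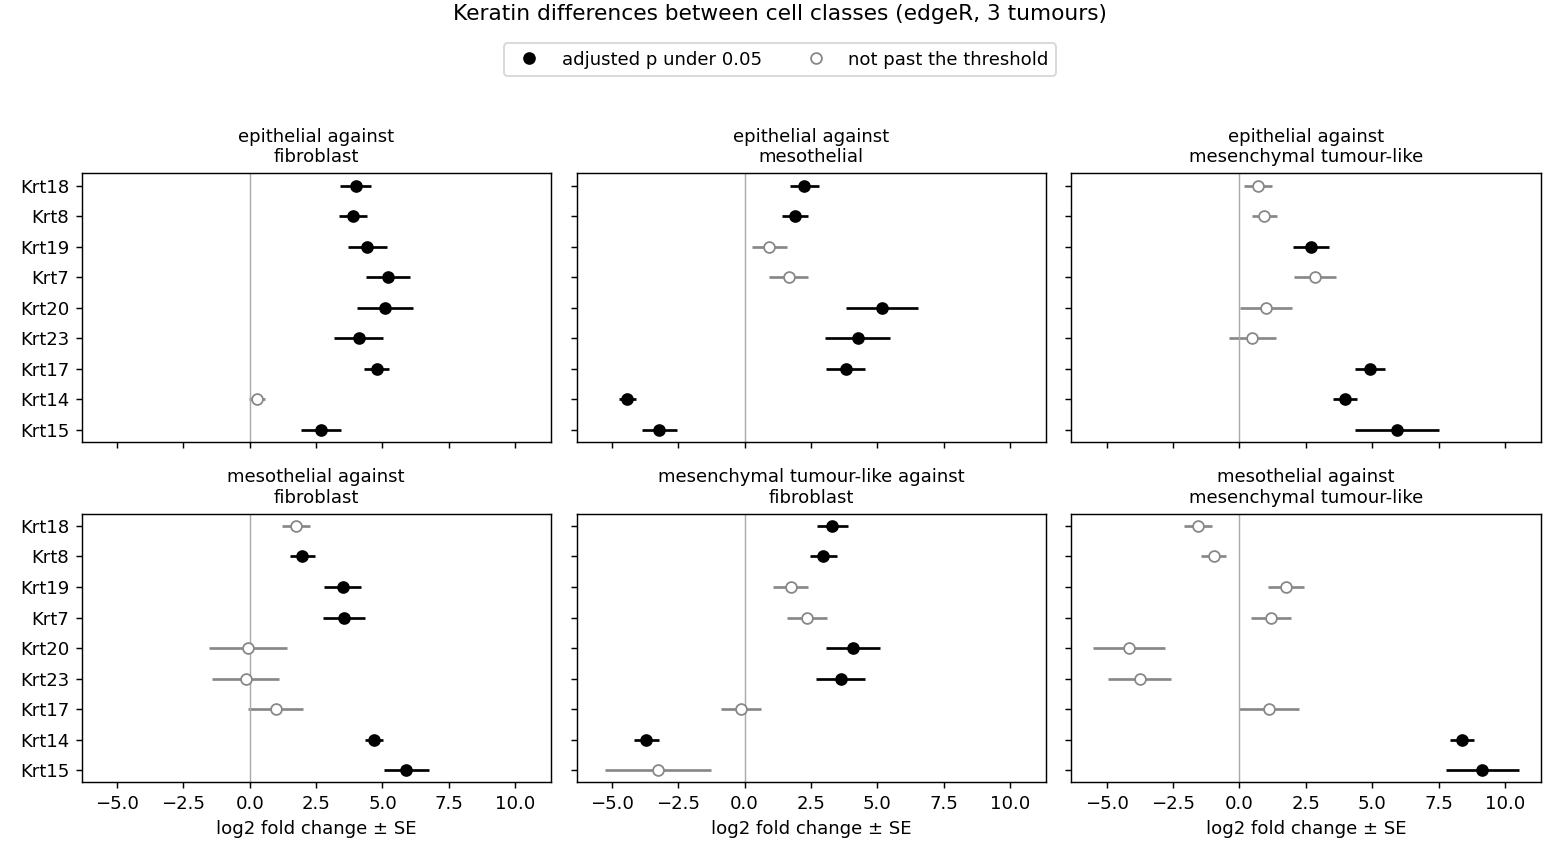
Log2 fold change with its standard error for 9 keratins in the 6 comparisons (3 tumours per class). Krt14 lies at -4.42 in epithelial against mesothelial cells and at 8.38 in mesothelial against mesenchymal tumour-like cells, while Krt18 and Krt8 lie at 0.69 and 0.93 between epithelial and mesenchymal tumour-like cells.

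Partners of the keratin network were compared between epithelial and mesenchymal tumour-like cells. Of 16 tested plakin, desmosome and hemidesmosome genes, 9 were higher in epithelial cells and 1 was lower, against 7.37% and 2.25% of all genes, with a median log2 fold change of 2.04 against 0.09 over all genes. Pkp3, encoding a desmosomal plakophilin, stood at 30.9, 26.0 and 29.2 CPM in epithelial and at 1.32, 1.60 and 1.45 CPM in mesenchymal tumour-like cells (log2 fold change 4.30, SE 0.43, edgeR adjusted p 0.000113). Dsp, encoding desmoplakin, which ties keratins to desmosomes, was at 51.6, 46.8 and 64.7 CPM against 21.5, 2.15 and 26.8 CPM. The gene lower in epithelial cells was Dst. Of 10 other intermediate filament genes, 0 were higher and 3 lower in epithelial cells: Vim (-2.33, SE 0.13), Lmna (-0.87, SE 0.13) and Nefl (-3.15, SE 0.78).

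Transcription factors known to act on epithelial genes changed in both directions. Of 17 tested, 7 were higher in epithelial cells than in mesenchymal tumour-like cells and 4 lower, against 7.37% and 2.25% of all genes, with a median log2 fold change of 0.75 against 0.09 over all genes. Grhl2, an activator of epithelial genes, stood at 10.8, 11.1 and 7.63 CPM in epithelial cells and at 0, 0.278 and 0 CPM in mesenchymal tumour-like cells, and Ovol2 differed by 4.04 (SE 0.53, edgeR adjusted p 0.000848). The 4 lower were Zeb1, Zeb2, Snai2 and Twist1, all known as repressors of epithelial genes or inducers of a mesenchymal state. Zeb2 stood at 8.95, 20.6 and 11.5 CPM in epithelial and 32.4, 81.0 and 50.05 CPM in mesenchymal tumour-like cells (log2 fold change -1.96, SE 0.27, edgeR adjusted p 0.00117).

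The squamous and basal list gave 4 higher and 0 lower of 8 tested genes in epithelial against mesenchymal tumour-like cells, where 7.37% of all genes were higher and 2.25% lower. The median log2 fold change was 1.91 over the list and 0.09 over all genes. Summed over the list, levels were 871, 1024 and 413 CPM in epithelial cells of tumours 1, 2 and 3. In mesenchymal tumour-like cells they were 839, 125 and 188 CPM, so the sums were close in tumour 1. Ly6d, a surface protein gene, stood at 398, 546 and 94.6 CPM against 6.62, 10.2 and 1.45 CPM (log2 fold change 5.80, SE 0.26, edgeR adjusted p 4.84e-07). Sfn, encoding the 14-3-3 sigma protein, which binds keratins, stood at 209, 175 and 82.9 CPM against 21.5, 25.2 and 7.98 CPM. Sfn is also in the plakin, desmosome and hemidesmosome list, so it counts among the higher genes of both lists.

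Of the 41 other keratins in the matrix, 11 had no UMI and 6 had at least 100. Krt10 was found in all classes at a like level, 23.1 to 30.8 CPM in epithelial and 27.9 to 40.7 CPM in fibroblast cells. Krt4, a keratin of mucosal epithelia, stood at 6.91, 3.52 and 2.96 CPM in epithelial cells and gave 0, 2 and 1 UMIs in mesothelial, fibroblast and mesenchymal tumour-like cells. Krt76 was the reverse, with 136 fibroblast and 17 epithelial UMIs (log2 fold change -4.05, SE 0.53, edgeR adjusted p 0.000158 for epithelial against fibroblast cells). Of the 6 that could be tested, 4 were higher and 1 lower in epithelial cells than in fibroblasts, where 20.6% of all genes were higher and 19.4% lower. Krt14, Krt16 and Krt17 have similar sequences and lie close together on chromosome 11, and no source used here gives how reads matching several of them were counted.

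The authors' deposited table, which lists 19 clusters of cells pooled over tumours, holds the same keratins. In the cluster of the authors' deposited table with Upk3b at a log2 fold change of 8.40, Krt14 was at 4.61 and Krt15 at 2.39. In the authors' deposited table Krt20 was highest, at 2.72, in the cluster with the gastric gene Gkn2 at 4.69. Of the clusters of the authors' deposited table with Hmga2 at 2.15 and 2.13, the first had Krt18 at -2.12 and Krt7 at -4.16, and the second Krt18 at -1.59 and Krt7 at -4.004. In the same 2 clusters of the authors' deposited table, Krt20 was at -4.53 and -3.66 and Krt23 at -4.74 and -5.38. These values set a cluster against the other cells, pooled over tumours. The percentages given here have another reference, the epithelial cells of the same tumour. They were 83.8% to 209% in mesenchymal tumour-like cells of tumours 1 and 3. In tumour 2, with 1057 of these cells, Krt20 and Krt23 stood at 4.10 and 4.38 CPM.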

How the data were processed

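UMI counts of 3 tumours were deposited as 1 matrix of whole numbers that the authors had not normalized, and each barcode's suffix gives its tumour, per the labels. The submitters' processing notes name Cell Ranger 2.1.1 and Seurat 3.0; the genome build was not given in the sources used here. A second table, from the authors, holds log2 fold changes and adjusted p-values for 19 clusters, per the file headers, and was copied untested. The deposited list of barcodes (column of other values) was used only to assign tumours.

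Barcodes with under 500 genes or over 20% mitochondrial counts were left out, and Scrublet (scanpy 1.11.5) removed 74, 94 and 144 doublets at its automatic thresholds. Counts were summed per tumour and class (12 sums, 387651 to 30966000 UMIs) and fitted together with edgeR 4.0.16 (quasi-likelihood, robust, TMM, filterByExpr, Benjamini-Hochberg over 13882 genes per comparison, threshold 0.05), with the tumour as block because the sums of a tumour come from the same sample. The 8 gate genes were left out of the tests. Each standard error is the size of the log2 change over the root of its F statistic. CPM scales the UMIs of each class to 1e+06. Cells of more than 1 gate were to be left out, which would have left 4, 0 and 2 mesothelial cells; after this was seen, the mesothelial gate took precedence, and cells of the fibroblast and mesenchymal gates went into neither. In each comparison at most 4 genes per list were named, those with the largest changes past the threshold and the same sign in 3 of 3 tumours; genes behind counts of 5 or fewer, and Dsp, were named after their values were seen. The test was tested on simulated data. The strain is not described in full here. The members and lists were chosen with earlier results of these data known. Alternatives were DESeq2 1.42.0, its size factors, other filters, gates and depths, and leaving out each tumour.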

Additional observations from a re-analysis of the deposited data

How the results depend on the processing

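The cause of each change below was not tested. Of 798 log2 fold changes of members under alternatives, 664 kept direction and side of the threshold, 71 were no longer called, 34 became called and 29 changed sign. Of 320 mean CPM levels under other gates, filters and depths, 24 moved by more than the spread between tumours. So did 36 of 80 shares of cells, in unthinned cells or cells thinned to 2000 UMIs, and 19 of 36 correlations, in unthinned cells. Of 40 makeup values, 2 moved so when cells of more than 1 gate were kept. Leaving out 1 tumour gave 2989 to 5593 genes and 4 to 7 keratins for epithelial against fibroblast cells, 1408 to 3781 and 1 to 8 for epithelial against mesothelial, 435 to 985 and 2 to 3 for epithelial against mesenchymal tumour-like, 291 to 1355 and 1 to 6 for mesothelial against fibroblast, 756 to 4673 and 1 to 7 for mesenchymal tumour-like against fibroblast, and 994 to 3369 and 2 to 6 for mesothelial against mesenchymal tumour-like cells. Without the tumour as replicate block, the counts of genes in the same order were 3457, 2611, 460, 591, 1848 and 2007, 1 keratin was called for epithelial against mesenchymal tumour-like cells, where Krt23 turned to -0.42, Krt20 and Krt23 turned to 0.039 and 0.013 for mesothelial against fibroblast, and Krt17 to 0.082 for mesenchymal tumour-like against fibroblast cells. The DESeq2 test called 6 keratins for mesothelial against mesenchymal tumour-like cells. With no filter on low counts, 2 keratins were called for mesothelial and 3 for mesenchymal tumour-like against fibroblast cells. Keeping cells of more than 1 gate turned Krt14 to -0.82 for epithelial against fibroblast and left 3 keratins for mesothelial against fibroblast cells. With 2 UMIs required of each gate marker, Krt14 turned to -0.22 for epithelial against fibroblast, mesothelial against fibroblast gave 821 genes with Krt17 at -5.15, and Krt17 was at -4.76 for mesothelial against mesenchymal tumour-like cells. With Cdh1, Cldn4, Cldn7 and Elf3 at 0 outside epithelial cells, epithelial against mesenchymal tumour-like cells gave 2119 genes. Thinning cells to equal depth gave 2543 genes and 4 keratins for epithelial against mesothelial, 1738 genes and 1 keratin for mesothelial against mesenchymal tumour-like, and Krt17 at 1.43 for mesenchymal tumour-like against fibroblast cells. Fibroblasts without mesothelial markers, and those without mesothelial or tumour markers, were both settings added after seeing the data. Each gave 2 keratins for epithelial and 4 for mesothelial against mesenchymal tumour-like cells. Krt17 for mesenchymal tumour-like against fibroblast was 0.12 and 1.09, and Krt15 was 0.25 under the first. Cells that then failed the fibroblast gate but passed the mesenchymal gate joined the mesenchymal tumour-like class. That class held 237, 1106 and 138 cells under the first setting and 244, 1313 and 138 under the second. For mesothelial against fibroblast cells, Krt20 changed sign to 0.095 (DESeq2 test), 0.39 (2 UMIs), 0.87 (epithelial genes at 0), 0.95 (thinned), 0.77 and 1.13 (both fibroblast gates) and 0.50 (without tumour 1, against -0.48 without tumour 3), and Krt23 to 0.70, 0.68, 1.006 and 1.36 under the 4 settings from epithelial genes at 0 to the fibroblast gates. Without tumour 1, Krt17 turned to -4.59 for mesothelial against fibroblast (1.15 without tumour 2), 0.076 for mesenchymal tumour-like against fibroblast and -4.67 for mesothelial against mesenchymal tumour-like cells (1.501 without tumour 3). Without tumour 2, Krt20 and Krt23 turned to -0.36 and -0.79 for epithelial against mesenchymal tumour-like (2.35 and 1.28 without tumour 3), and Krt17 to 0.21 for mesenchymal tumour-like against fibroblast cells. Depth limits Krt5, Krt15 and Krt17 outside epithelial cells, and the mesothelial class of tumour 3, with 46 cells and 387651 UMIs.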
